A study of Mus musculus with 15 samples.

Results

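The 10 genes described here encode early transcription factors of 3 families: Egr1, Egr2 and Egr3 of the EGR family, Nr4a1, Nr4a2 and Nr4a3 of the NR4A family, and Klf2, Klf4, Klf6 and Klf10 of the KLF family. They were chosen by name and family, not by a measured value, from the 55385 genes of a table of raw RNA-seq read counts, where each Ensembl gene ID was matched to its mouse symbol. Earlier results of these data were known at that choice. All 10 passed the filter on low counts (over 1 CPM, counts scaled to a common library size, in at least 2 libraries), as did 13005 genes in all. The libraries were made from bone marrow-derived macrophages (BMDMs), macrophages grown in culture from the marrow of BALB/c mice aged 6 wk.

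The study asked what the transcription factor STAT5 does in macrophages that receive signals from mammary tumor cells. Macrophages came from STAT5fl/fl mice, in which Stat5a and Stat5b are flanked by loxP sites but intact, and from STAT5cKO mice, in which Csf1r-iCre deletes both genes. Csf1r drives this Cre in the myeloid lineage and is not limited to macrophages. For 2 h, cells of each genotype received serum-free DMEM (the control), DMEM with 20 ng/mL recombinant mouse GM-CSF, a growth factor of myeloid cells whose receptor activates STAT5, or 4T1 CM, medium conditioned by the mouse mammary tumor line 4T1, a model of triple-negative breast cancer. There were 2 STAT5fl/fl libraries (mice 112 and 113) and 3 STAT5cKO libraries (mice 114, 115 and 116) for each treatment, or 15 in 6 groups. A further STAT5fl/fl replicate that the methods describe as removed at quality control was not analysed here. The same numbers recur in the 3 treatments of a genotype. The labels do not say what a number stands for, and it is written here as a mouse. If it does not mark separate animals, the p-values measure only the spread between these libraries, which may be technical.

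EGR proteins are zinc finger activators whose genes are switched on within minutes of growth factor signaling through MAP kinases, the serum response factor SRF and its ETS partners, and they induce their own corepressors, NAB1 and NAB2. NR4A proteins are orphan nuclear receptors that need no known ligand, and cAMP signaling through CREB is a classic inducer of their genes. Their activity was not measured here. KLF proteins are zinc finger factors that bind GC-rich and CACCC sequences. In macrophages EGR2 is known as a marker of alternative activation, NR4A1 and KLF2 as brakes on inflammatory gene expression, KLF4 as a factor of monocyte differentiation and alternative activation, and KLF6 as a promoter of inflammatory gene expression.

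Read counts in genes ranged from 16016736 to 22883108 per library (median 21379480), so that 3 counts corresponded to 0.131 to 0.187 CPM, and the fit gave a common biological coefficient of variation of 0.0787. Stat5a was read at 29 to 45 normalized CPM in the 6 STAT5fl/fl libraries and at 0 to 3 counts in the 9 STAT5cKO libraries. Stat5b was read at 60.8 to 77.7 normalized CPM and at 0 to 4 counts. Every library matched its genotype label. The summed level of 7 macrophage markers was 23826 to 27175 CPM in STAT5fl/fl and 29943 to 42646 CPM in STAT5cKO libraries, and Lyz2 among them was higher in STAT5cKO with every treatment. Of 4 T cell markers, Cd3d, Cd3e and Cd8a stood at or under 3 counts in every library, while Cd4 carried the sum, which was 8.9 to 10.4 CPM in STAT5fl/fl and 5.79 to 7.35 CPM in STAT5cKO libraries. Cd4 was called lower in STAT5cKO with every treatment (log2 differences -0.56, -0.60 and -0.47). Summed levels were at most 0.227 CPM for 3 B cell, 0.0638 for 3 erythroid and 2.36 for 5 neutrophil markers. The sum of 3 dendritic cell markers was 0.506 to 1.0 CPM in DMEM, 1.72 to 3.86 CPM with GM-CSF and 0.632 to 1.37 CPM with 4T1 CM, and Zbtb46 among them rose with GM-CSF in both genotypes (5.08-fold and 3.64-fold). The sum of 3 fibroblast markers was 0.322 to 0.843 CPM in STAT5fl/fl and 0.708 to 4.21 CPM in STAT5cKO libraries. Col1a1, the only one tested, was higher in STAT5cKO by log2 differences of 1.85 in DMEM, 2.66 with GM-CSF and 2.19 with 4T1 CM. None of these was called (adjusted p = 0.116, 0.0328 and 0.0526 by edgeR's quasi-likelihood test), at group means of at most 1.87 CPM. The sum of 4 epithelial markers in STAT5fl/fl libraries was 0 to 0.136 CPM in DMEM, 1.18 to 1.43 CPM with GM-CSF and 3.16 to 4.33 CPM with 4T1 CM. In STAT5cKO libraries it was at most 0.0435 CPM in DMEM and 0.049 CPM with GM-CSF, and 1.23 to 2.17 CPM with 4T1 CM. Cdh1 gave most of this sum, and was called lower in STAT5cKO with GM-CSF and with 4T1 CM, while Krt8 and Krt18 stayed at or under 3 counts and Epcam at or under 4 counts in every library. The sum of 3 endothelial markers, nearly all of it Kdr, was 118 to 126 CPM in STAT5fl/fl and 59 to 65.5 CPM in STAT5cKO libraries in DMEM. It was 54 to 62.8 and 56.4 to 70.2 CPM with GM-CSF, and 98.1 to 111 and 72.8 to 96.2 CPM with 4T1 CM. The part of these markers in the results below was not tested. In such bulk RNA, fewer cells that express a gene and less RNA per cell cannot be told apart.

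With 4T1 CM all 10 members passed the test in both genotypes, and with GM-CSF 6 in STAT5fl/fl and 5 in STAT5cKO macrophages. With 4T1 CM against DMEM, 9 of 10 rose and Klf6 fell in STAT5fl/fl macrophages (called at an adjusted p under 0.01; 37.4% of all genes tested were called, 19.2% higher and 18.2% lower). In STAT5cKO macrophages 8 of 10 rose while Egr2 and Klf6 fell (37.6% of all genes called, 19.3% higher and 18.4% lower). With GM-CSF, 6 of 10 rose in STAT5fl/fl (Egr1, Egr2, Egr3, Nr4a3, Klf4 and Klf6; 28.5% of all genes called, 15.9% higher and 12.6% lower). In STAT5cKO macrophages 5 of 10 rose (the same genes without Nr4a3; 23.5% of all genes called, 13.3% higher and 10.2% lower), and none fell. Between the genotypes, no member was called in DMEM (2.49% of all genes called, 0.938% higher and 1.55% lower), 3 were called with GM-CSF (9.8%) and 6 with 4T1 CM (7.7%). In DMEM 3 members had an unadjusted p under 0.05. All genes were not counted at that looser threshold, so no excess of members can be read from it. The medians of the members' log2 fold changes were 1.77 and 2.21 with 4T1 CM in STAT5fl/fl and STAT5cKO macrophages, beside 0.0152 and 0.0131 over all genes tested, and 1.02 and 0.59 with GM-CSF, beside -0.00621 and -0.00347. Adjusted p-values here and below come from edgeR's quasi-likelihood test with Benjamini-Hochberg adjustment over the 13005 genes, values are normalized CPM unless another scale is named, and errors of log2 fold changes are SE. The treatment comparisons of a genotype share their DMEM libraries, so their values are given side by side and are not independent of each other. Statements that libraries overlap, or lie above or below others, describe the values and are not tests. With so few libraries per group, groups can lie apart by chance, and the share of all genes that did so was not counted.

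Egr2 was the member whose responses to both treatments differed between the genotypes. The gene (ENSMUSG00000037868, chr10:67535475-67542188, plus strand, GRCm38) encodes a factor of alternatively activated macrophages and of myelinating glia. In STAT5fl/fl macrophages its level was 46.3 and 42.7 in DMEM, 277 and 288 with GM-CSF and 79.5 and 72.4 with 4T1 CM. In STAT5cKO macrophages it was 38.3, 31.4 and 33.7 in DMEM, 106, 104 and 106 with GM-CSF and 21.8, 17.3 and 16.7 with 4T1 CM. Within each genotype the GM-CSF libraries stood above all others, but the 4T1 CM libraries stood above DMEM in STAT5fl/fl and below DMEM in STAT5cKO macrophages, with no overlap of any groups within a genotype. GM-CSF raised Egr2 6.35-fold in STAT5fl/fl (log2 fold change 2.67 ± 0.10 (SE), adjusted p = 1.69e-12) and 3.06-fold in STAT5cKO macrophages (1.61 ± 0.09, adjusted p = 1.30e-10). With 4T1 CM, Egr2 rose 1.71-fold in STAT5fl/fl (0.77 ± 0.10, adjusted p = 7.68e-06) and fell 1.85-fold in STAT5cKO macrophages (-0.89 ± 0.09, adjusted p = 3.97e-07). The difference between the genotypes in the response was itself significant for GM-CSF (interaction -1.05 ± 0.13, adjusted p = 6.09e-05) and for 4T1 CM (interaction -1.66 ± 0.14, adjusted p = 8.14e-06). These calls and directions held under every alternative tried, also without each mouse in turn.

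Set against STAT5fl/fl macrophages, STAT5cKO macrophages therefore held 2.68-fold less Egr2 RNA with GM-CSF (log2 fold change -1.42 ± 0.09 (SE), adjusted p = 2.76e-09) and 4.09-fold less with 4T1 CM (-2.03 ± 0.10, adjusted p = 5.98e-10). In DMEM the 3 STAT5cKO libraries lay below both STAT5fl/fl libraries, with a log2 difference of -0.37 ± 0.10, adjusted p = 0.0282, which did not pass the threshold of 0.01. That difference passed it without mouse 114 (-0.45, adjusted p = 0.00424), by edgeR's likelihood ratio test (adjusted p = 0.00633) and by DESeq2 (adjusted p = 0.00636). Against GM-CSF, 4T1 CM libraries held 3.71-fold less Egr2 RNA in STAT5fl/fl and 5.67-fold less in STAT5cKO macrophages (adjusted p = 1.30e-10 and 6.34e-13).

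Egr1, the best known immediate early zinc finger factor, and Egr3, a close relative, rose with both treatments in both genotypes. Egr1 (ENSMUSG00000038418) was read at 4 and 4.89 in DMEM, 12.4 and 9.92 with GM-CSF and 14.1 and 15.7 with 4T1 CM in STAT5fl/fl macrophages. In STAT5cKO macrophages Egr1 was read at 4.87, 4.87 and 4.69 in DMEM, 10.1, 8.69 and 9.07 with GM-CSF and 16.9, 21.5 and 19.4 with 4T1 CM. Its groups did not overlap within a genotype, and its order was the same in both, with DMEM lowest and 4T1 CM highest. GM-CSF raised Egr1 2.49-fold in STAT5fl/fl (1.32 ± 0.17, adjusted p = 6.89e-06 on the log2 scale) and 1.93-fold in STAT5cKO macrophages (0.95 ± 0.14, adjusted p = 3.43e-05). With 4T1 CM, Egr1 rose 3.33-fold and 4.01-fold (adjusted p = 7.17e-08 and 3.29e-10). No comparison of the genotypes called Egr1, the nearest being 4T1 CM, where all 3 STAT5cKO libraries were above both STAT5fl/fl libraries (log2 difference 0.38 ± 0.12, adjusted p = 0.0418).

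Egr3 (ENSMUSG00000033730, chr14:70077203-70082614, plus strand) was read at 2.68 and 1.94 in DMEM, 5.91 and 5.2 with GM-CSF and 7.49 and 8.61 with 4T1 CM in STAT5fl/fl macrophages. In STAT5cKO macrophages Egr3 was read at 2.3, 1.13 and 1.44 in DMEM, 7.4, 6.51 and 6.26 with GM-CSF and 16, 15.4 and 18.9 with 4T1 CM. DMEM libraries of the genotypes overlapped, whereas with 4T1 CM every STAT5cKO library was above both STAT5fl/fl libraries. With 4T1 CM, Egr3 rose 3.49-fold in STAT5fl/fl (1.80 ± 0.23, adjusted p = 3.75e-06) and 10.4-fold in STAT5cKO macrophages (3.38 ± 0.18, adjusted p = 3.71e-11). The level with 4T1 CM was 2.09-fold higher in STAT5cKO macrophages (1.06 ± 0.15, adjusted p = 0.000156). Egr2 and Egr3 thus differed between the genotypes in opposite directions in the same libraries. The difference in the 4T1 CM response of Egr3 passed the threshold narrowly (interaction 1.57 ± 0.32, adjusted p = 0.00969). It was 1.23 (adjusted p = 0.193) without mouse 112, 1.89 (adjusted p = 0.0523) without mouse 113, 1.43 (adjusted p = 0.0364) without mouse 115 and 1.40 (adjusted p = 0.0508) without mouse 116. GM-CSF raised Egr3 2.41-fold in STAT5fl/fl (1.27 ± 0.25, adjusted p = 0.000547) and 4.18-fold in STAT5cKO macrophages (2.06 ± 0.20, adjusted p = 4.64e-07). The former call was lost without mouse 112 (adjusted p = 0.0116) and without mouse 113 (adjusted p = 0.0315).

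**Figure D1:**
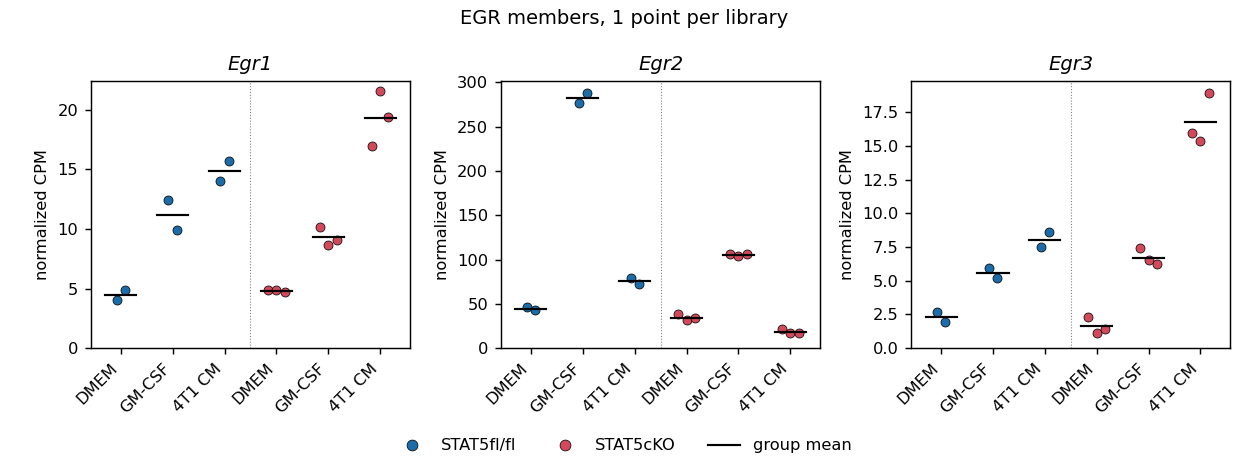
Levels of Egr1, Egr2 and Egr3 in each library, in normalized CPM on a linear axis that starts at 0, by treatment (x axis) and genotype (blue, STAT5fl/fl, n = 2; red, STAT5cKO, n = 3), with the group mean as a black line. Egr1 and Egr3 are highest with 4T1 CM in both genotypes, while Egr2 is highest with GM-CSF and, in STAT5cKO macrophages with 4T1 CM, lies at 21.8, 17.3 and 16.7, below the DMEM libraries.

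The 3 NR4A receptors made up the steepest response to 4T1 CM among the members. Nr4a1 (ENSMUSG00000023034, chr15:101254269-101274795, plus strand), also known as Nur77, a restraint on inflammatory macrophages, was read at 3.27 and 1.6 in DMEM, 1.87 and 1.5 with GM-CSF and 55.1 and 75.5 with 4T1 CM in STAT5fl/fl macrophages. In STAT5cKO macrophages Nr4a1 was read at 4.13, 3.52 and 2.88 in DMEM, 3.58, 2.5 and 3.38 with GM-CSF and 118, 99.5 and 114 with 4T1 CM. The DMEM and GM-CSF libraries overlapped within each genotype, and the 4T1 CM libraries stood far above them. With 4T1 CM, Nr4a1 rose 27-fold in STAT5fl/fl (4.75 ± 0.22, adjusted p = 1.35e-11) and 31.6-fold in STAT5cKO macrophages (4.98 ± 0.17, adjusted p = 1.06e-13). With GM-CSF its log2 fold changes were -0.53 ± 0.39, adjusted p = 0.305 and -0.16 ± 0.25, adjusted p = 0.657. With 4T1 CM the level was 1.69-fold higher in STAT5cKO macrophages (0.76 ± 0.14, adjusted p = 0.00105), and the 3 STAT5cKO libraries were above both STAT5fl/fl libraries. That call was lost by DESeq2 (adjusted p = 0.0208), in a fit of those 2 groups alone (adjusted p = 0.0118) and without mouse 112 (0.55, adjusted p = 0.0183).

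Nr4a2 (ENSMUSG00000026826, chr2:57106830-57124003, minus strand), or Nurr1, best known from dopaminergic neurons, was low without 4T1 CM, at 3 to 42 counts per library. Its level in STAT5fl/fl macrophages was 0.864 and 0.927 in DMEM, 0.934 and 0.161 with GM-CSF and 12.8 and 9.65 with 4T1 CM, the value of 0.161 resting on 3 counts. In STAT5cKO macrophages its level was 1.75, 1.78 and 1.61 in DMEM, 2.06, 1.87 and 1.92 with GM-CSF and 40.2, 46 and 40.7 with 4T1 CM. In each of the 3 treatments every STAT5cKO library was above both STAT5fl/fl libraries. With 4T1 CM, Nr4a2 rose 12.5-fold in STAT5fl/fl (3.64 ± 0.25, adjusted p = 2.50e-09) and 24.7-fold in STAT5cKO macrophages (4.62 ± 0.16, adjusted p = 1.17e-13). With 4T1 CM the level was 3.75-fold higher in STAT5cKO macrophages (1.91 ± 0.14, adjusted p = 7.35e-08), a call that held under every alternative. With GM-CSF it was 3.72-fold higher (1.90 ± 0.42, adjusted p = 0.00383), but this rested on few counts. Without mouse 112 the log2 difference was 3.55, without mouse 113 it was 1.06 (adjusted p = 0.0701), and the call was also lost without mouse 114, 115 or 116 (adjusted p = 0.0203, 0.013 and 0.0146). In DMEM the log2 difference was 0.93 ± 0.33, adjusted p = 0.108.

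Nr4a3 (ENSMUSG00000028341, chr4:48045153-48086447, plus strand), or NOR1, was the NR4A member that GM-CSF also moved. Its level in STAT5fl/fl macrophages was 0.637 and 0.969 in DMEM, 3.36 and 2.31 with GM-CSF and 8.37 and 7.69 with 4T1 CM. In STAT5cKO macrophages its level was 0.919, 1.17 and 1.11 in DMEM, 1.86, 2.67 and 2.23 with GM-CSF and 25.4, 36.2 and 21.4 with 4T1 CM. In both genotypes the GM-CSF libraries lay above DMEM and the 4T1 CM libraries above both, with no overlap. With 4T1 CM, Nr4a3 rose 9.87-fold in STAT5fl/fl (3.30 ± 0.36, adjusted p = 7.44e-07) and 25.6-fold in STAT5cKO macrophages (4.68 ± 0.23, adjusted p = 1.76e-11). The level with 4T1 CM was 3.44-fold higher in STAT5cKO macrophages (1.78 ± 0.19, adjusted p = 7.33e-06). The difference in its 4T1 CM response against DMEM was not called (interaction 1.38 ± 0.56, adjusted p = 0.257). The step from GM-CSF to 4T1 CM was larger in STAT5cKO macrophages (interaction 2.08 ± 0.41, adjusted p = 0.00702). That interaction was 1.87 (adjusted p = 0.151) without mouse 112, 2.28 (adjusted p = 0.0629) without mouse 113 and 2.01 (adjusted p = 0.0342) without mouse 114. It also missed the threshold under voom with a random mouse effect (adjusted p = 0.0165) and with the compared groups alone (adjusted p = 0.0209). GM-CSF raised Nr4a3 3.44-fold in STAT5fl/fl macrophages (1.78 ± 0.46, adjusted p = 0.00483), a call lost without mouse 112 (1.25, adjusted p = 0.183), without mouse 113 (2.39, adjusted p = 0.0219) and under voom with a random mouse effect (adjusted p = 0.0163). In STAT5cKO macrophages the log2 fold change was 1.08 ± 0.36, adjusted p = 0.0271, which missed the threshold. Without mouse 113, the step from GM-CSF to 4T1 CM in STAT5fl/fl macrophages was 1.31 (adjusted p = 0.04), against 1.52 ± 0.30, adjusted p = 0.000547 with all libraries.

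**Figure D2:**
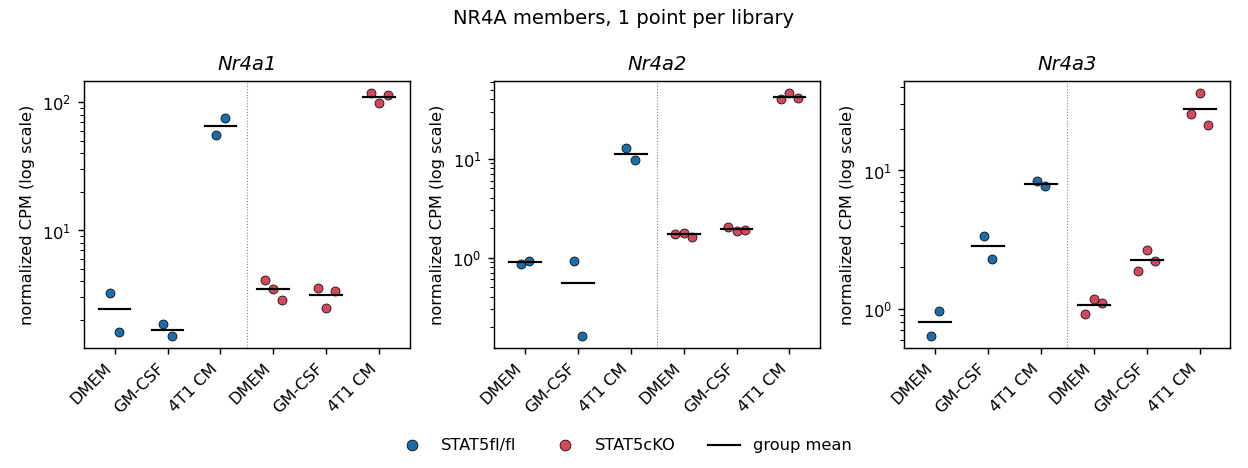
Levels of Nr4a1, Nr4a2 and Nr4a3 in each library, in normalized CPM on a log axis, by treatment and genotype (blue, STAT5fl/fl, n = 2; red, STAT5cKO, n = 3), with the group mean as a black line. With 4T1 CM all 3 genes stand above every DMEM and GM-CSF library, and the STAT5cKO libraries stand above the STAT5fl/fl libraries; the lowest point of Nr4a2, 0.161, rests on 3 counts.

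Because the NR4A genes moved together with 4T1 CM and CREB is their classic inducer, the 250 bases ahead of a transcription start were searched for TGACG, the core of the cAMP response element, on both strands (CGTCA is the same core on the other strand). RefSeq starts with a sequence were matched for 7 members (Egr2, Nr4a1, Nr4a2, Nr4a3, Klf2, Klf4 and Klf6), on build GRCm38.p6. Egr3 and Klf10 had no entry, and Egr1 was left out of the search. The 3 NR4A windows and that of Egr2, the member with the opposite genotype difference, are printed 5′ to 3′ on the gene's strand, with TGACG and CGTCA in capitals, from chr15:101266596-101266845 (plus strand), chr2:57124004-57124253 (minus strand), chr4:48045055-48045152 (plus strand) and chr10:67537619-67537868 (plus strand). The window of Nr4a1 lies in an intron of its longest annotated transcript, the last 152 bases of the Nr4a3 window belong to an exon that GENCODE vM21 annotates and are not printed. Of 5 RefSeq starts of Egr2 the one at the principal GENCODE transcript was taken.
Nr4a1: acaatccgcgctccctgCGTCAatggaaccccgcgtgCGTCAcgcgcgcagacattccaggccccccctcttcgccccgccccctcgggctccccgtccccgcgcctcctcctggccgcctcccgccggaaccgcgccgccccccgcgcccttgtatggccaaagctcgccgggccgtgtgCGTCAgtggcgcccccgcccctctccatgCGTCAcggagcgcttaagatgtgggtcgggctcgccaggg
Nr4a2: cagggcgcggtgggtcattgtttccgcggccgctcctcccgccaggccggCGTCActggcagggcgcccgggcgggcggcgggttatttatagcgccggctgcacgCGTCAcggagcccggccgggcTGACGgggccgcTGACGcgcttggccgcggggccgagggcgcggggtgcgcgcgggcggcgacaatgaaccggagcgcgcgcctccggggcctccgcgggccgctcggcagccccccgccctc
Nr4a3: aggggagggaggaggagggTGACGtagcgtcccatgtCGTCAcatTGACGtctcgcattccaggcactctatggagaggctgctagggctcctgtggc
Egr2: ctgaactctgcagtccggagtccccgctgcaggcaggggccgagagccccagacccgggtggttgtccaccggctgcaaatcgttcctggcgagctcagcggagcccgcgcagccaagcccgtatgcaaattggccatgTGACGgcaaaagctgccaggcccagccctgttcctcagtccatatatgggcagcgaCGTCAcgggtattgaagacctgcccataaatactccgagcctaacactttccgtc

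Each of the 3 NR4A windows held 4 copies of the core, in Nr4a1 at 233, 213, 69 and 40 bases ahead of the start, in Nr4a2 at 200, 144, 123 and 111, and in Nr4a3 at 231, 213, 205 and 147, the last of these in the exonic bases not printed. Of 32851 windows of the same length in the RefSeq table, 17.8% held at least 1 copy and 45 (0.137%) held 4 or more. The windows of the NR4A genes were also rich in G and C (74.4%, 80% and 63.6%, against a median of 52.4% over all windows), and the core contains CG. The windows counted were not matched for this, and a gene could enter with several starts. How rare such counts are among windows as rich in G and C was not tested. Egr2 held 2 copies, Klf2 and Klf4 held 1 each and Klf6 held none. The full palindrome TGACGTCA was in none of the 7 windows (1.55% of all), and neither was TTCNNNGAA, the sequence that STAT5 and other STAT dimers bind (7.02% of all). Egr2 held a CArG box, the element that SRF binds, 72 bases ahead of its start (1.47% of all windows), and the motif GCGNGGGCG, which EGR proteins bind, was found in Nr4a1, Nr4a2, Klf2 and Klf4 (4.7% of all). These are matches of letters and say nothing of binding in these cells.

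Of the KLF members, Klf4 and Klf10 rose with 4T1 CM, Klf2 rose less, and Klf6, by far the most abundant member, rose with GM-CSF and fell slightly with 4T1 CM. Klf4 (ENSMUSG00000003032, chr4:55527143-55532466, minus strand) was read at 8.46 and 7.88 in DMEM, 17.1 and 18.5 with GM-CSF and 37.2 and 35.2 with 4T1 CM in STAT5fl/fl macrophages. In STAT5cKO macrophages Klf4 was read at 10.4, 12 and 7.66 in DMEM, 16.5, 17.9 and 14.7 with GM-CSF and 49.5, 60.5 and 50.8 with 4T1 CM. The treatments did not overlap in either genotype, with GM-CSF between DMEM and 4T1 CM. With 4T1 CM, Klf4 rose 4.43-fold and 5.37-fold in STAT5fl/fl and STAT5cKO macrophages (adjusted p = 4.34e-09 and 2.20e-11). GM-CSF raised it 2.18-fold and 1.65-fold (adjusted p = 4.28e-05 and 0.000417). With 4T1 CM the level was 1.48-fold higher in STAT5cKO macrophages (0.57 ± 0.12, adjusted p = 0.00405). This call was lost without mouse 112 (0.61, adjusted p = 0.0406), without mouse 113 (0.53, adjusted p = 0.0949) and in a fit of those 2 groups alone (adjusted p = 0.0157). The GM-CSF call in STAT5fl/fl macrophages was lost without mouse 113 (1.01, adjusted p = 0.0134).

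Klf6 (ENSMUSG00000000078, chr13:5861482-5870394, plus strand) was read at 455 and 480.1 in DMEM, 849 and 909 with GM-CSF and 409 and 385 with 4T1 CM in STAT5fl/fl macrophages. In STAT5cKO macrophages Klf6 was read at 421, 408 and 419 in DMEM, 558, 589.8 and 577 with GM-CSF and 351, 377 and 347 with 4T1 CM. GM-CSF libraries were the highest of each genotype, and those of STAT5cKO macrophages lay well below those of STAT5fl/fl macrophages. GM-CSF raised Klf6 1.88-fold in STAT5fl/fl (0.91 ± 0.07, adjusted p = 5.25e-09) and 1.38-fold in STAT5cKO macrophages (0.47 ± 0.05, adjusted p = 2.68e-06). The level with GM-CSF was 1.53-fold lower in STAT5cKO macrophages (-0.61 ± 0.06, adjusted p = 7.79e-07), under every alternative. The GM-CSF response itself was smaller without STAT5 (interaction -0.44 ± 0.08, adjusted p = 0.0029), a call lost without mouse 112, 113, 114 or 116 (-0.46, -0.43, -0.42 and -0.44, adjusted p = 0.0295, 0.0501, 0.0273 and 0.0201). Klf6 was thus the member that shared with Egr2 a lower level in STAT5cKO macrophages with GM-CSF. The fall with 4T1 CM was small in both genotypes (-0.24 ± 0.07, adjusted p = 0.00637 in STAT5fl/fl and -0.21 ± 0.05, adjusted p = 0.00281 in STAT5cKO). In STAT5fl/fl macrophages it was lost without mouse 112, 113, 114 or 116 (log2 -0.32, -0.15, -0.24 and -0.24), and in STAT5cKO macrophages without mouse 114 or 116 (-0.19 and -0.19). Both calls were also lost with the compared groups alone (-0.24, adjusted p = 0.0222 in STAT5fl/fl and -0.22, adjusted p = 0.0108 in STAT5cKO).

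Klf2 (ENSMUSG00000055148, chr8:72319033-72321656, plus strand), a factor of quiescence in endothelium, T cells and monocytes, was read at 10 and 11.9 in DMEM, 7.28 and 6.81 with GM-CSF and 14.5 and 20.1 with 4T1 CM in STAT5fl/fl macrophages. In STAT5cKO macrophages Klf2 was read at 11.9, 12.8 and 12.5 in DMEM, 11.8, 10.9 and 11.4 with GM-CSF and 18.7, 31.1 and 25 with 4T1 CM. Libraries with 4T1 CM were the highest of each genotype, but spread widely between mice. With 4T1 CM, Klf2 rose 1.58-fold in STAT5fl/fl (0.66 ± 0.19, adjusted p = 0.00944) and 2.01-fold in STAT5cKO macrophages (1.01 ± 0.15, adjusted p = 2.17e-05). The former call was lost without mouse 112 (0.76), 113 (0.54) or 116 (0.66, adjusted p = 0.019). It was also lost under voom with a random mouse effect (0.64, adjusted p = 0.0125). With GM-CSF both STAT5fl/fl libraries lay below their DMEM libraries (log2 fold change -0.64 ± 0.23, adjusted p = 0.0321) and below all 3 STAT5cKO GM-CSF libraries (log2 difference of the genotypes 0.69 ± 0.21, adjusted p = 0.0332), neither past the threshold. Both passed by DESeq2 (adjusted p = 0.00898 and 0.00419). With 4T1 CM the genotypes overlapped (log2 difference 0.53 ± 0.16, adjusted p = 0.0396), and without mouse 114 the difference was 0.70 (adjusted p = 0.005).

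Klf10 (ENSMUSG00000037465, chr15:38291463-38300706, minus strand), an early gene of TGF-beta signaling, was read at 36.9 and 37.1 in DMEM, 39.1 and 31.6 with GM-CSF and 90.4 and 105 with 4T1 CM in STAT5fl/fl macrophages. In STAT5cKO macrophages Klf10 was read at 43, 39.3 and 37 in DMEM, 39.4, 40.5 and 34.2 with GM-CSF and 133, 104 and 125 with 4T1 CM. DMEM and GM-CSF libraries overlapped in both genotypes, and 4T1 CM libraries stood above them. With 4T1 CM, Klf10 rose 2.64-fold in STAT5fl/fl and 3.04-fold in STAT5cKO macrophages (adjusted p = 4.66e-08 and 4.17e-10). Its log2 fold changes with GM-CSF were -0.07 ± 0.13, adjusted p = 0.711 and -0.06 ± 0.10, adjusted p = 0.704. No comparison of the genotypes called Klf10, and with 4T1 CM the genotypes overlapped (log2 difference 0.30 ± 0.11, adjusted p = 0.0654).

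**Figure D3:**
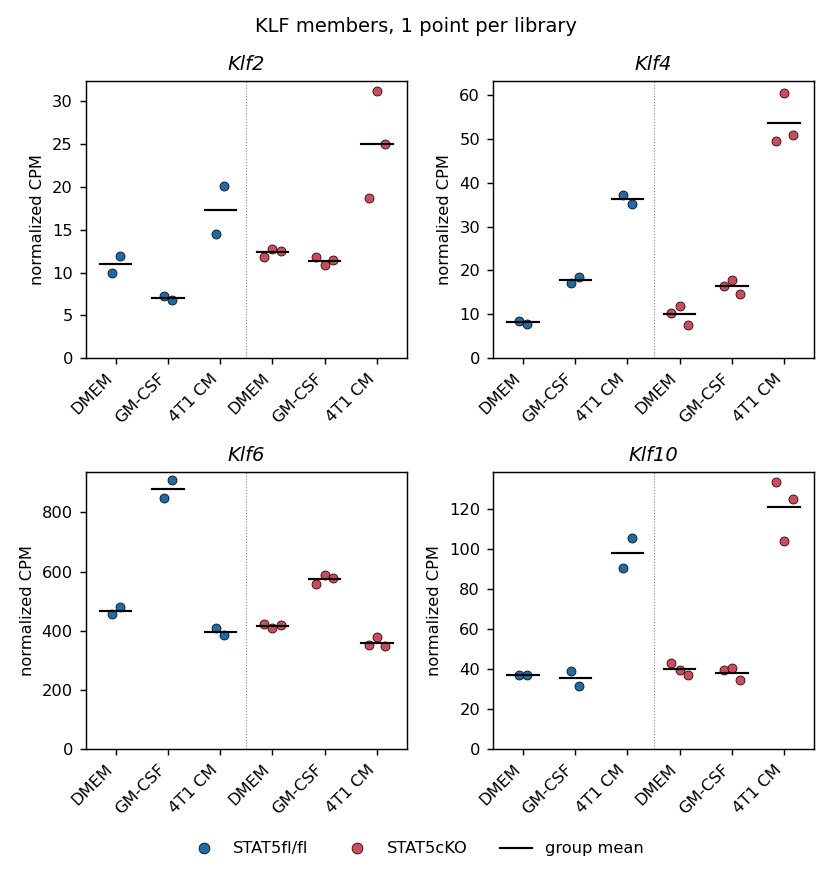
Levels of Klf2, Klf4, Klf6 and Klf10 in each library, in normalized CPM on linear axes that start at 0, by treatment and genotype (blue, STAT5fl/fl, n = 2; red, STAT5cKO, n = 3), with the group mean as a black line. Klf6 is highest with GM-CSF, at 849 and 909 in STAT5fl/fl and 558, 589.8 and 577 in STAT5cKO macrophages, whereas Klf2, Klf4 and Klf10 are highest with 4T1 CM.

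Side by side, the 2 treatments sorted the members into those that 4T1 CM moved more and those that GM-CSF moved more. With 4T1 CM against GM-CSF in STAT5fl/fl macrophages, 8 of 10 members were called (30.5% of all genes, 13.8% higher and 16.7% lower), 6 higher with 4T1 CM (Nr4a1, Nr4a2, Nr4a3, Klf2, Klf4 and Klf10) and Egr2 and Klf6 lower. In STAT5cKO macrophages all 10 were called (34.1% of all genes, 16.6% higher and 17.5% lower), with Egr2 and Klf6 again lower and the other 8 higher. The widest steps were those of Nr4a1, 38.9-fold and 35.4-fold higher with 4T1 CM in STAT5fl/fl and STAT5cKO macrophages, and Nr4a2, 21.5-fold and 21.6-fold higher. For Egr1 and Egr3 the step in STAT5fl/fl macrophages was 0.42 ± 0.14, adjusted p = 0.0244 and 0.54 ± 0.20, adjusted p = 0.0399 on the log2 scale. The step of Klf2 in STAT5fl/fl macrophages (1.30 ± 0.22, adjusted p = 0.000121) was lost without mouse 113 (1.0, adjusted p = 0.0305).

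**Figure D4:**
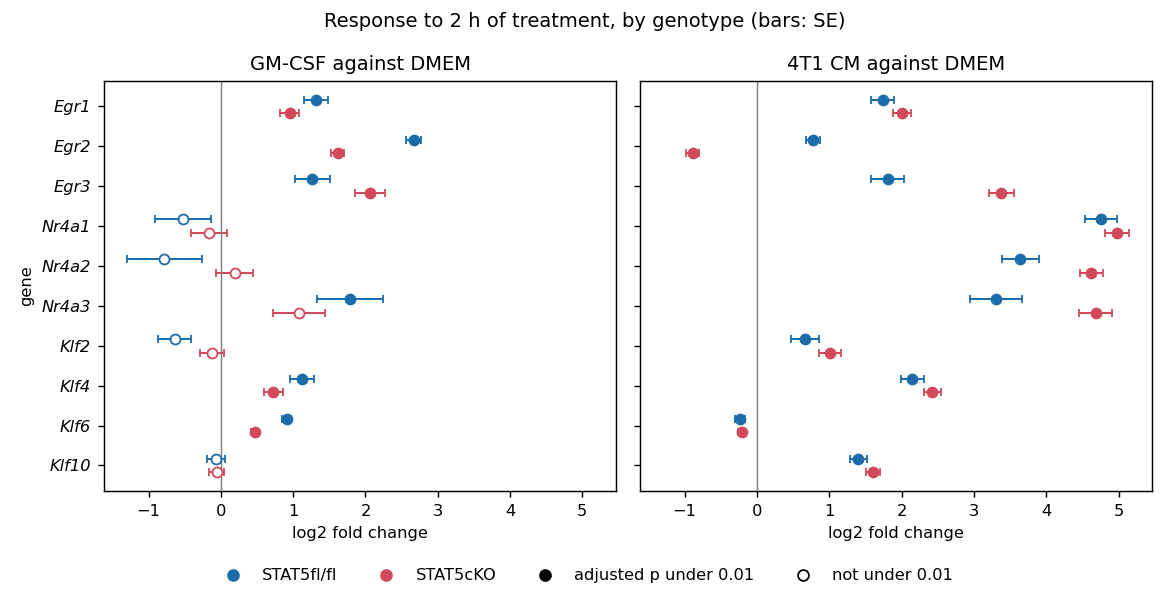
Log2 fold change of each member with GM-CSF (left) and 4T1 CM (right) against DMEM, in STAT5fl/fl (blue, n = 2 per group) and STAT5cKO (red, n = 3 per group) macrophages, with SE bars; filled points had an adjusted p under 0.01. Egr2 is the member whose points for 4T1 CM lie on opposite sides of 0, at 0.77 and -0.89. Within each genotype the NR4A genes lie farthest to the right with 4T1 CM, from 3.30 to 4.98 over both.

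The genotypes differed in direction by gene. With 4T1 CM, 5 members were higher in STAT5cKO macrophages (Egr3, Nr4a1, Nr4a2, Nr4a3 and Klf4; 4.13% of all genes tested were called higher) and Egr2 was lower (3.57% called lower). The 10 members' log2 differences had a median of 0.55, beside 0.00981 over all genes tested, and 8 of the 10 were above 0. With GM-CSF, Egr2 and Klf6 were lower (6.24% of all genes called lower) and Nr4a2 higher (3.57% called higher). In DMEM 7 of 10 log2 differences were above 0, with a median of 0.14 and none past the threshold. The 3 comparisons of the genotypes use different libraries with the same numbers.

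**Figure D5:**
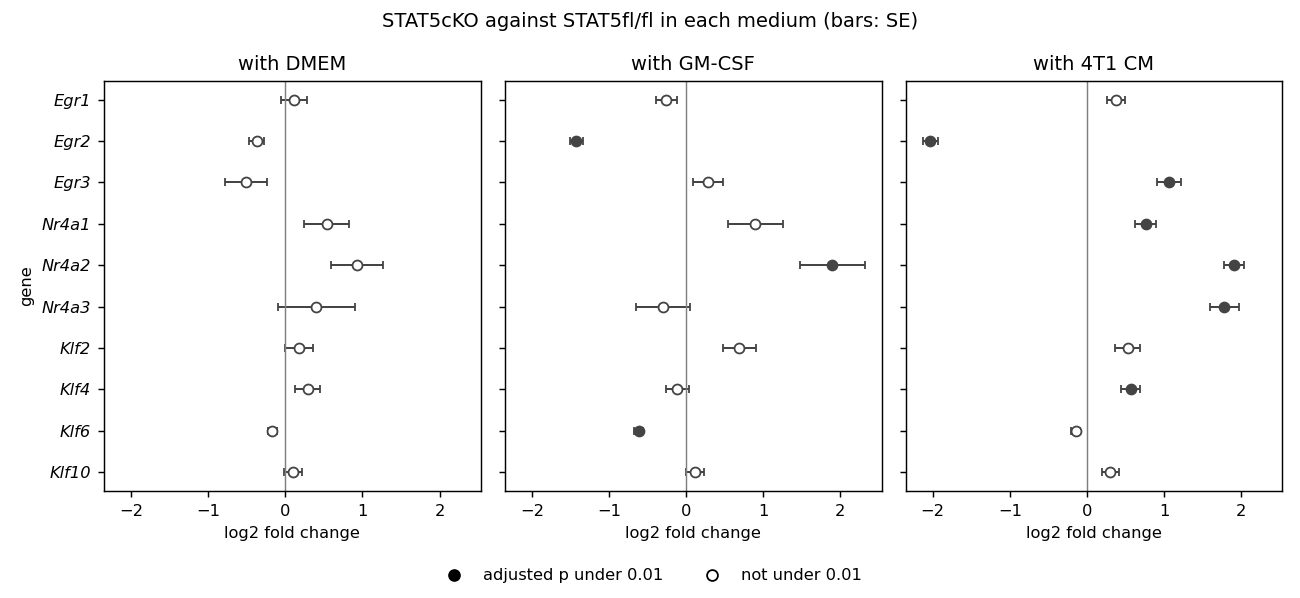
Log2 difference of each member between STAT5cKO (n = 3) and STAT5fl/fl (n = 2) macrophages in DMEM, with GM-CSF and with 4T1 CM, with SE bars; filled points had an adjusted p under 0.01 and values above 0 are higher in STAT5cKO. Egr2 lies below 0 in all 3 panels, at -0.37, -1.42 and -2.03, and the NR4A genes lie above 0 with 4T1 CM, from 0.76 to 1.91.

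Tests of whether a treatment's effect differed between the genotypes called 2 of 10 members for GM-CSF against DMEM (Egr2 and Klf6, both lower; 3.11% of all genes called, 0.884% higher and 2.22% lower). They called 2 for 4T1 CM against DMEM (Egr2 lower and Egr3 higher; 1.27% of all genes called, 0.73% higher and 0.538% lower) and 2 for 4T1 CM against GM-CSF (Nr4a3 and Klf6, both higher; 1.47% of all genes called, 1.32% higher and 0.146% lower). For 4T1 CM against GM-CSF the interaction of Klf6 was 0.46 ± 0.08, adjusted p = 0.00362. It was 0.56 (adjusted p = 0.0157) without mouse 112, 0.37 (adjusted p = 0.172) without mouse 113, 0.46 (adjusted p = 0.0235) without mouse 114, 0.44 (adjusted p = 0.0212) without mouse 115 and 0.49 (adjusted p = 0.0166) without mouse 116. Levels of Nr4a1, Nr4a2, Nr4a3 and Klf4 with 4T1 CM were also higher in STAT5cKO macrophages. For their responses to 4T1 CM the interactions against DMEM were 0.23 ± 0.32, adjusted p = 0.831 and 0.98 ± 0.39, adjusted p = 0.241 for Nr4a1 and Nr4a2. They were 1.38 ± 0.56, adjusted p = 0.257 for Nr4a3 and 0.28 ± 0.20, adjusted p = 0.597 for Klf4. A larger response was not shown for any of these.

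Levels of different genes were compared per length, as normalized CPM per kb of exon. In DMEM Klf6 stood far above the other members in STAT5fl/fl macrophages, at 107 ± 4.01 (SD, n = 2), followed by Egr2 at 13.1 ± 0.75, Klf10 at 8.85 ± 0.0266, Klf2 at 5.92 ± 0.719 and Klf4 at 2.68 ± 0.134. Nr4a2 and Nr4a3 were the lowest at 0.221 ± 0.011 and 0.134 ± 0.0393. With GM-CSF, Egr2 reached 83.1 ± 2.28 in STAT5fl/fl and 31 ± 0.329 in STAT5cKO macrophages (n = 3), in both the level next to Klf6. With 4T1 CM the order of the genotypes parted. In STAT5fl/fl macrophages Klf10, Egr2 and Nr4a1 followed Klf6 at 23.4 ± 2.51, 22.4 ± 1.48 and 18.6 ± 4.1, neighbours that lay within their spread of each other. In STAT5cKO macrophages Nr4a1 and Klf10 followed Klf6 at 31.5 ± 2.77 and 28.9 ± 3.6, again within their spread, and Egr2 had dropped to the seventh place at 5.47 ± 0.822, within the spread of Nr4a3 at 4.62 ± 1.28.

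Regulators that are known to act on or with these factors were followed by fixed lists, listed by name and not by their values here, though with earlier results of these data known. Both tested EGR corepressors rose with both treatments in both genotypes (28.5% and 23.5% of all genes called with GM-CSF, 37.4% and 37.6% with 4T1 CM). Nab2 had log2 fold changes of 1.21 ± 0.08, adjusted p = 1.13e-09 and 1.13 ± 0.06, adjusted p = 2.76e-10 with GM-CSF in STAT5fl/fl and STAT5cKO macrophages. With 4T1 CM these were 0.51 ± 0.08, adjusted p = 3.17e-05 and 0.73 ± 0.06, adjusted p = 3.58e-08. The corresponding values of Nab1 were 0.94, 0.90, 0.68 and 0.71 (adjusted p at most 1.92e-06). Between the genotypes neither corepressor was called in any treatment. Of SRF and 5 partners, 3 rose and 1 fell with 4T1 CM in each genotype, beside 37.4% and 37.6% of all genes called. With GM-CSF, 2 rose and 1 fell in STAT5fl/fl (28.5% of all genes called) and 3 rose and 1 fell in STAT5cKO macrophages (23.5%). The 4T1 CM calls were led by Elk3, an ETS factor (1.52 ± 0.09, adjusted p = 3.78e-10 and 1.6 ± 0.07, adjusted p = 8.78e-12), and Srf (0.79 ± 0.08, adjusted p = 6.76e-07 and 1.0 ± 0.07, adjusted p = 1.74e-09). Mrtfa, an actin-regulated coactivator, fell (-1.55 ± 0.10, adjusted p = 9.18e-10 and -0.84 ± 0.08, adjusted p = 1.14e-07). Srf also rose with GM-CSF (0.78 ± 0.09, adjusted p = 1.37e-06 and 0.74 ± 0.07, adjusted p = 2.30e-07).

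Of 6 CREB factors and coactivators, 2 rose and 1 fell with 4T1 CM in each genotype, and the other 3 were not called (37.4% and 37.6% of all genes called). More of the list rose with GM-CSF, 4 with none falling in STAT5fl/fl (28.5% of all genes called) and 3 with 1 falling in STAT5cKO macrophages (23.5%). The values of the genes called with 4T1 CM follow. Crem, whose short form is a cAMP-induced repressor, rose by 2.68 ± 0.12, adjusted p = 1.16e-11 in STAT5fl/fl and 2.95 ± 0.10, adjusted p = 1.25e-13 in STAT5cKO macrophages on the log2 scale. Crtc3, a CREB coactivator, rose by 2.14 ± 0.08, adjusted p = 1.29e-12 and 1.84 ± 0.07, adjusted p = 2.67e-13, while Crtc1 fell (-0.95 ± 0.12, adjusted p = 2.90e-06 and -0.60 ± 0.09, adjusted p = 3.72e-05). No gene of this list was called between the genotypes with 4T1 CM. With GM-CSF, Crtc3 was lower in STAT5cKO macrophages (-0.84 ± 0.07, adjusted p = 2.73e-07). Both tested RXR genes, whose products pair with NR4A1 and NR4A2, fell with both treatments in both genotypes. Of all genes, 12.6% and 10.2% were called lower with GM-CSF and 18.2% and 18.4% with 4T1 CM. Rxra fell by -0.82 ± 0.12, adjusted p = 2.29e-05 in STAT5fl/fl and -0.73 ± 0.10, adjusted p = 1.00e-05 in STAT5cKO macrophages with 4T1 CM.

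Among the other KLF factors, 7 of 13 listed genes could be tested, and they moved in both directions. Of all genes, 37.4% and 37.6% were called with 4T1 CM and 28.5% and 23.5% with GM-CSF in STAT5fl/fl and STAT5cKO macrophages. With 4T1 CM, Klf13 (1.0 ± 0.06, adjusted p = 5.18e-10 and 1.1 ± 0.05, adjusted p = 6.50e-12) and Klf7 (1.65 ± 0.10, adjusted p = 7.63e-10 and 1.84 ± 0.09, adjusted p = 7.73e-12) rose. In each genotype 4 fell, led by Klf11, a TGF-beta-inducible relative of Klf10 (-1.85 ± 0.15, adjusted p = 2.16e-08 and -1.40 ± 0.12, adjusted p = 2.53e-08). With GM-CSF, 1 fell in STAT5fl/fl and 2 in STAT5cKO macrophages, and 4 rose in each genotype, among them Klf3, a repressor, by 1.68 ± 0.09, adjusted p = 6.45e-11 in STAT5fl/fl and 1.12 ± 0.07, adjusted p = 1.34e-09 in STAT5cKO macrophages. The effect differed between the genotypes (interaction -0.56 ± 0.11, adjusted p = 0.00434). Klf3 was lower in STAT5cKO macrophages with GM-CSF (-0.77 ± 0.08, adjusted p = 1.22e-06), as Klf6 was. Klf13 was higher (0.36 ± 0.06, adjusted p = 0.000309) and Klf3 lower (-0.45 ± 0.08, adjusted p = 0.00112) in STAT5cKO macrophages with 4T1 CM.

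Of 3 genes known as targets of KLF2 and KLF4 in endothelium or T cells, 2 could be tested. With 4T1 CM, both rose in each genotype (37.4% and 37.6% of all genes called in STAT5fl/fl and STAT5cKO macrophages). With GM-CSF 1 and 2 fell and none rose (28.5% and 23.5%). Between the genotypes 1 was lower in DMEM (2.49% of all genes called), and 1 was higher and 1 lower with each of GM-CSF and 4T1 CM (9.8% and 7.7%). Thbd, which encodes the anticoagulant thrombomodulin, fell with GM-CSF (-2.07 ± 0.23, adjusted p = 1.47e-06 in STAT5fl/fl and -0.87 ± 0.15, adjusted p = 0.000193 in STAT5cKO) and rose with 4T1 CM (1.59 ± 0.15, adjusted p = 1.18e-07 and 2.58 ± 0.11, adjusted p = 4.71e-12). It was higher in STAT5cKO macrophages with GM-CSF (1.38 ± 0.24, adjusted p = 0.000492) and with 4T1 CM (1.17 ± 0.12, adjusted p = 4.49e-06). S1pr1, a receptor for sphingosine 1-phosphate, rose with 4T1 CM (1.28 ± 0.10, adjusted p = 2.08e-08 and 0.85 ± 0.09, adjusted p = 2.82e-07) and fell with GM-CSF in STAT5cKO macrophages (-0.81 ± 0.09, adjusted p = 1.53e-06). It was lower in STAT5cKO macrophages in DMEM, with GM-CSF and with 4T1 CM (-0.48 ± 0.09, adjusted p = 0.00597, -1.05 ± 0.10, adjusted p = 5.50e-07 and -0.91 ± 0.09, adjusted p = 4.68e-06). Of 6 early genes of TGF-beta signaling, the list beside Klf10, 4 rose with 4T1 CM in each genotype and none fell (37.4% and 37.6% of all genes called). With GM-CSF, 2 rose and 1 fell in STAT5fl/fl (28.5% of all genes called) and 1 rose in STAT5cKO macrophages (23.5%). Among the 4 that rose with 4T1 CM was Smad7, an inhibitory SMAD (1.94 ± 0.15, adjusted p = 9.75e-09 and 2.49 ± 0.12, adjusted p = 1.06e-11). Smad7 was also higher in STAT5cKO macrophages with 4T1 CM (0.67 ± 0.12, adjusted p = 0.000921).

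A list of 17 other immediate early genes gave the wider setting. With 4T1 CM, 15 rose and 2 fell in each genotype, beside 37.4% and 37.6% of all genes called. With GM-CSF, 11 rose and none fell in STAT5fl/fl (28.5% of all genes called), and 14 rose and 1 fell in STAT5cKO macrophages (23.5%). Between the genotypes 5 were higher, none lower and 12 not called with 4T1 CM (4.13% of all genes called higher and 3.57% lower), led by Fosb (2.30 ± 0.16, adjusted p = 3.87e-08), Fosl1 (1.86 ± 0.26, adjusted p = 5.51e-05), Dusp1 (0.64 ± 0.09, adjusted p = 8.41e-05) and Fos (0.70 ± 0.10, adjusted p = 0.000209), which encode AP-1 subunits and a MAP kinase phosphatase. With GM-CSF 2 were higher and 6 lower in STAT5cKO macrophages (3.57% and 6.24% of all genes), led by Ier3 (-1.83 ± 0.10, adjusted p = 1.19e-09) and, in the other direction, Fos (1.78 ± 0.12, adjusted p = 8.98e-09).

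The genes whose levels followed the members most closely over the 15 libraries were found by the correlation of log2 CPM, as a description only, since the points share mice and treatments. Closest to Egr2 was Ado (r = 0.976), a thiol dioxygenase gene on the opposite strand of the same chromosome (chr10:67544511-67549068) whose near end lies 2323 bases beyond the end of Egr2, and then Cars, a cysteinyl-tRNA synthetase gene on chromosome 7 (r = 0.957). Reads were assigned by strand, so reads of the 2 facing genes are kept apart as far as strand marking holds. Ado spanned a narrower range than Egr2, with means of 61.6, 116 and 70.6 in STAT5fl/fl and 57, 83.4 and 40.3 in STAT5cKO macrophages in DMEM, with GM-CSF and with 4T1 CM. Like Egr2, Ado fell with 4T1 CM in STAT5cKO macrophages (-0.50 ± 0.06, adjusted p = 4.47e-06), and its log2 fold change in STAT5fl/fl macrophages was 0.20 ± 0.08, adjusted p = 0.0411. Closest to Nr4a2 were Cytip, a regulator of leukocyte adhesion (r = 0.982; chr2:58129137-58195532, 1005134 bases away on the same chromosome), and Thbs1, the thrombospondin 1 gene (r = 0.98). Thbs1 rose with 4T1 CM (3.76 ± 0.17, adjusted p = 8.63e-12 in STAT5fl/fl and 4.91 ± 0.14, adjusted p = 1.87e-14 in STAT5cKO macrophages), and was higher in STAT5cKO macrophages with 4T1 CM (1.38 ± 0.14, adjusted p = 3.34e-06). Closest to Klf4 were Emd, the emerin gene (r = 0.991), and Gosr2, a Golgi SNARE gene (r = 0.987), both of which rose with 4T1 CM by about a log2 unit (1.16 and 0.97 in STAT5fl/fl macrophages).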

How the data were processed

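Raw read counts per gene in 15 libraries were used as deposited. Per the file header and the labels' processing notes, the authors trimmed stranded paired reads with Trimmomatic 0.33, aligned them to GRCm38 with HISAT2 2.1.0 and counted them with featureCounts 1.6.2 by strand at a mapping quality of at least 10, with an Ensembl annotation. The header also names libraries with another conditioned medium, which are not analysed here. From the counts, genes over 1 CPM in at least 2 libraries were kept (13005 of 55385, holding 99.9% of counts in the library with the lowest share), scaled by relative log expression and fitted in 1 model of 6 groups with edgeR 4.0.16 (quasi-likelihood F test in R 4.3.3), with Benjamini-Hochberg adjustment over all genes tested and a threshold of 0.01. The filter, scaling and threshold follow the study's methods. Normalized CPM are counts scaled to a common library size, and CPM per kb divide these by exon length. Intervals from counts and p-values cover the spread between these libraries only. Depth was 16016736 to 22883108 counts per library.

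Libraries were grouped by their labels. The number in a library's title recurs over the treatments of a genotype and is written here as the mouse, which the labels do not state. Comparisons were 3 of the genotypes within a treatment, 6 of treatments within a genotype and 3 interactions. Alternatives were TMM scaling, no filter, filterByExpr, the likelihood ratio test, DESeq2 1.42.0, limma 3.58.1 voom with the mouse as a random effect, the mouse as a block, fits of the compared groups alone, each mouse left out, and, added after seeing the data, the legacy form of the quasi-likelihood fit. The scripts were tested on simulated counts. Motifs were searched in RefSeq promoter sequences with Python.

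The 10 members are all named with every library's value. Of each list of related genes the counts by direction are given for the treatments against DMEM, with values for at most 4 called genes per comparison, by the smallest adjusted p. The 2 genes most like Egr2, and most like the NR4A and the KLF member with the widest range of group means (Nr4a2 and Klf4), are the non-members with the highest Pearson correlation of log2 CPM. The members and lists were chosen with earlier results of these data known. A member each of the lists of TGF-beta early genes and of KLF2 and KLF4 targets is not reported here, and the counts of those lists leave them out.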

Additional observations from a re-analysis of the deposited data

Results flagged for a closer look

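A treatment's effect differed between STAT5fl/fl and STAT5cKO macrophages, by edgeR's interaction test with Benjamini-Hochberg adjustment, in 6 cases, each given as the STAT5cKO minus the STAT5fl/fl log2 fold change. For GM-CSF against DMEM these were Egr2 (-1.05 ± 0.13 SE, adjusted p = 6.09e-05) and Klf6 (-0.44 ± 0.08, adjusted p = 0.0029), which rose less in STAT5cKO macrophages. For 4T1 CM against DMEM they were Egr2 (-1.66 ± 0.14, adjusted p = 8.14e-06), which rose in both STAT5fl/fl mice and fell in all 3 STAT5cKO mice, and Egr3 (1.57 ± 0.32, adjusted p = 0.00969), which rose in every mouse and more in STAT5cKO macrophages. For 4T1 CM against GM-CSF they were Nr4a3 (2.08 ± 0.41, adjusted p = 0.00702) and Klf6 (0.46 ± 0.08, adjusted p = 0.0036). Without each mouse in turn, both interactions of Egr2 held in all 5 fits. Those of Klf6 and Egr3 against DMEM held in 1 of 5, that of Nr4a3 in 2 of 5 and that of Klf6 against GM-CSF in none.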

How the results depend on the processing

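The counts of members called kept to within 1.5 times in all other settings, and moved further in these. For STAT5cKO against STAT5fl/fl macrophages in DMEM the count by edgeR was 0 (3 at an unadjusted p under 0.05), and 1 (Egr2) by the likelihood ratio test and by DESeq2. With GM-CSF it was 3, and 5 by the likelihood ratio test, with Nr4a1 and Klf2 added. The interaction for 4T1 CM against DMEM called 2, and 1 with the compared groups alone. That for 4T1 CM against GM-CSF called 2, and 4 with the mouse as a block, and 0 with the compared groups alone (6 of 10 at an unadjusted p under 0.05). All genes were not counted at an unadjusted p under 0.05, here or for DMEM. Without each mouse in turn, the count was 0 to 1 for the genotypes in DMEM, 3 to 6 for GM-CSF in STAT5fl/fl macrophages (lowest without mouse 113), 1 to 2 for the interactions of GM-CSF against DMEM and of 4T1 CM against DMEM, and 0 to 1 for that of 4T1 CM against GM-CSF. The cause of these moves was not tested. Leaving out mouse 112 or 113 leaves 1 STAT5fl/fl library per treatment, assumed to vary like the other groups.

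Of the fold changes without 1 mouse, 541 kept direction and call, 39 lost and 3 gained a call, and 17 turned direction. Of those under other settings, 1017 kept both, 11 lost and 20 gained a call, and 1 turned. Turned values were all of effects not called. Over the fits without 1 mouse they spanned -0.022 to 0.27 for Egr1 between the genotypes in DMEM, -0.035 to 0.27 for Klf10 between the genotypes with GM-CSF, -2.48 to 0.11 for Nr4a2 and -0.23 to 0.082 for Klf10 with GM-CSF in STAT5fl/fl, and -0.34 to 0.0047 for Nr4a1 with GM-CSF in STAT5cKO macrophages. For the interaction of GM-CSF against DMEM they spanned -0.073 to 0.64 for Nr4a1 and -0.14 to 0.17 for Klf10, for that of 4T1 CM against DMEM -0.57 to 0.91 for Nr4a1 and -0.065 to 0.10 for Klf6, and for that of 4T1 CM against GM-CSF -0.50 to 0.26 for Nr4a1, -1.42 to 0.66 for Nr4a2, -0.43 to 0.13 for Klf2 and -0.069 to 0.45 for Klf10. With the mouse as a random effect, the last interaction of Nr4a2 was -0.35.

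Deviations of same-numbered libraries from their group means correlated by 0.0926 to 0.213 in STAT5fl/fl and 0.0548 to 0.214 in STAT5cKO macrophages. In 16 of 18 matches between STAT5cKO groups and 12 of 12 between STAT5fl/fl groups a library correlated best with that of its own number. With 2 libraries per STAT5fl/fl group the deviations mirror each other, so those matches are not independent. Libraries of the same number were thus more alike, but whether the number marks an animal was not tested. The replicate block can be fitted to the comparisons within a genotype and to the interactions. It added the calls of Nr4a3 with GM-CSF in STAT5cKO macrophages (1.05, adjusted p = 0.00249; also called by the likelihood ratio test, DESeq2, the legacy fit and with the compared groups alone) and of Egr2 (-0.61) and Klf4 (0.69) in the interaction of 4T1 CM against GM-CSF, and changed no other member's call. Over all genes, counts outside 1.5 times, other than without 1 mouse, were these. Between the genotypes, 324 were called in DMEM, 608 by the likelihood ratio test and 540 by DESeq2, and 1001 with 4T1 CM, 280 with the compared groups alone. The interaction of 4T1 CM against DMEM called 165, 332 by the likelihood ratio test, 342 by DESeq2, 302 with the block and 79 with the compared groups alone, and that of 4T1 CM against GM-CSF 191, 302 by the likelihood ratio test and 305 by DESeq2. Without mouse 113 the count fell to 24 in the interaction of 4T1 CM against DMEM. Precision is limited by 2 STAT5fl/fl mice and, for Nr4a2 outside 4T1 CM, by 3 to 42 counts per library.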
